A study of Sus scrofa with 8 samples.

Results

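The genes described here code for collagens, laminins and other proteins of the extracellular matrix. They were chosen by a rule on gene names that uses no measured value, though it was set with earlier results of these data known. They are the genes whose probe sets carry a single gene symbol that starts with COL and a digit, LAMA, LAMB, LAMC, NID, FBN, FBLN, LOX, THBS, TNC, POSTN, SPARC, EFEMP, MFAP, MGP or ADAMTS, or that is one of 13 further symbols such as FN1, DCN, LUM and VIM. Of 6765 pig genes with 1 symbol on the array, 48 were members, carried by 93 probe sets. Of the 13 further symbols, ELN, HSPG2, FMOD, OGN and P4HA1 were matched by no probe set with 1 symbol and were not analysed here. The probe set with the highest mean log2 intensity over the arrays stood for each gene.

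Islets were isolated from male neonatal pigs of a Duroc and Large White cross, 4 labelled 3-day-old and 4 labelled 7-day-old, with 1 Affymetrix porcine GeneChip per pig. The labels name no transgene and no treatment of the animals, and the islets of both ages were prepared by digestion of the pancreas with collagenase and kept for 7 days in the same culture medium. The comparison asks how islets of the 2 ages differ. Such preparations are mixed: the islet hormone genes INS, GCG, SST and PPY were at or above the 20th percentile of intensities in all 8 arrays, while IAPP was below it in all 8, and markers of connective tissue, vessels, ducts and exocrine cells were also measured.

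Matrix proteins fall into sheets and fibres. Basement membranes are thin sheets of collagen IV and laminin joined by nidogens, and in the pancreas they surround the islets and the capillaries that run through them, where endocrine cells touch them through integrins. The interstitial matrix around them consists of fibrillar collagens, microfibrils, proteoglycans and adhesive glycoproteins, and is made largely by fibroblasts and stellate cells.

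The deposited values were linear intensities, in arbitrary units, scaled to the same trimmed mean in every array (500.1). Of the 48 genes, 46 were tested, because ADAMTS20 and MFAP5 were below the 20th percentile of the array (26.4 to 31.3) in all 8 arrays. Of the 46, 37 were at or above it in all 8. Of those tested, 45 reached it in at least 1 array of both labels, and COL10A1 in 1 array labelled 7-day-old only. An intensity depends on the probes as well as on the RNA, so no gene's intensity is compared with another's.

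Most matrix genes were lower in arrays labelled 7-day-old than in arrays labelled 3-day-old. This direction follows the deposited labels and is opposite to that of the study. Its supplementary lists hold the members DCN, NID2 and SPARCL1 as higher at the older age. Which of them, deposited labels or paper, has the ages exchanged could not be settled, so groups are named by their deposited labels throughout, and "lower" means lower in arrays labelled 7-day-old. Of the 46 genes tested, 12 were lower and 0 higher at an adjusted p under 0.05 (limma, Benjamini-Hochberg over all 21574 probe sets tested). The share was 26.1%, beside 7.16% lower and 5.03% higher among all 6540 genes tested. At an unadjusted p under 0.05, 27 members were lower and 0 higher, beside 2983 lower and 3034 higher of the 21574 probe sets tested. The methods' test, after the same adjustment, gave 12 and 0. The log2 difference was negative in 43 members (93.5%) and positive in 3, beside 53.4% negative among all genes. Its median was -0.66 over the members and -0.02 over all genes. In 21 members (45.7%) every array labelled 7-day-old was below every array labelled 3-day-old, beside 13.5% of all genes, and in 0 members was the order the other way, beside 11.1%.

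**Figure D1:**
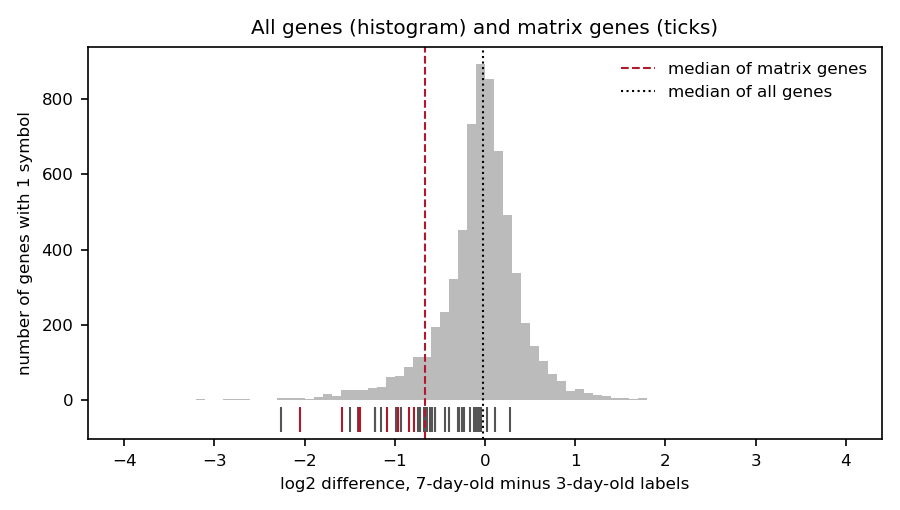
Histogram of the log2 difference (arrays labelled 7-day-old minus 3-day-old, x axis) over the 6540 genes tested, as a number of genes per bin (y axis), with 1 tick below it for each of the 46 matrix genes, red where the adjusted p was under 0.05. The median of the matrix genes (dashed) lay at -0.66 and that of all genes (dotted) at -0.02, and the ticks run from -2.27 to 0.28.

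Among the 37 members at or above the 20th percentile in all 8 arrays, 12 were lower and the median was -0.71, beside 7.73% lower and a median of -0.02 among the 5757 genes of the same kind. Over all tested probe sets of the members, including those not used for their gene, 17 of 78 were lower (21.8%) and 0 higher, beside 5.47% lower and 5.21% higher among all probe sets, and 72 had a negative difference, beside 50.1%. The RNA of a whole preparation was measured, so fewer cells of a type and less RNA per cell cannot be told apart in any of these values.

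**Figure D2:**
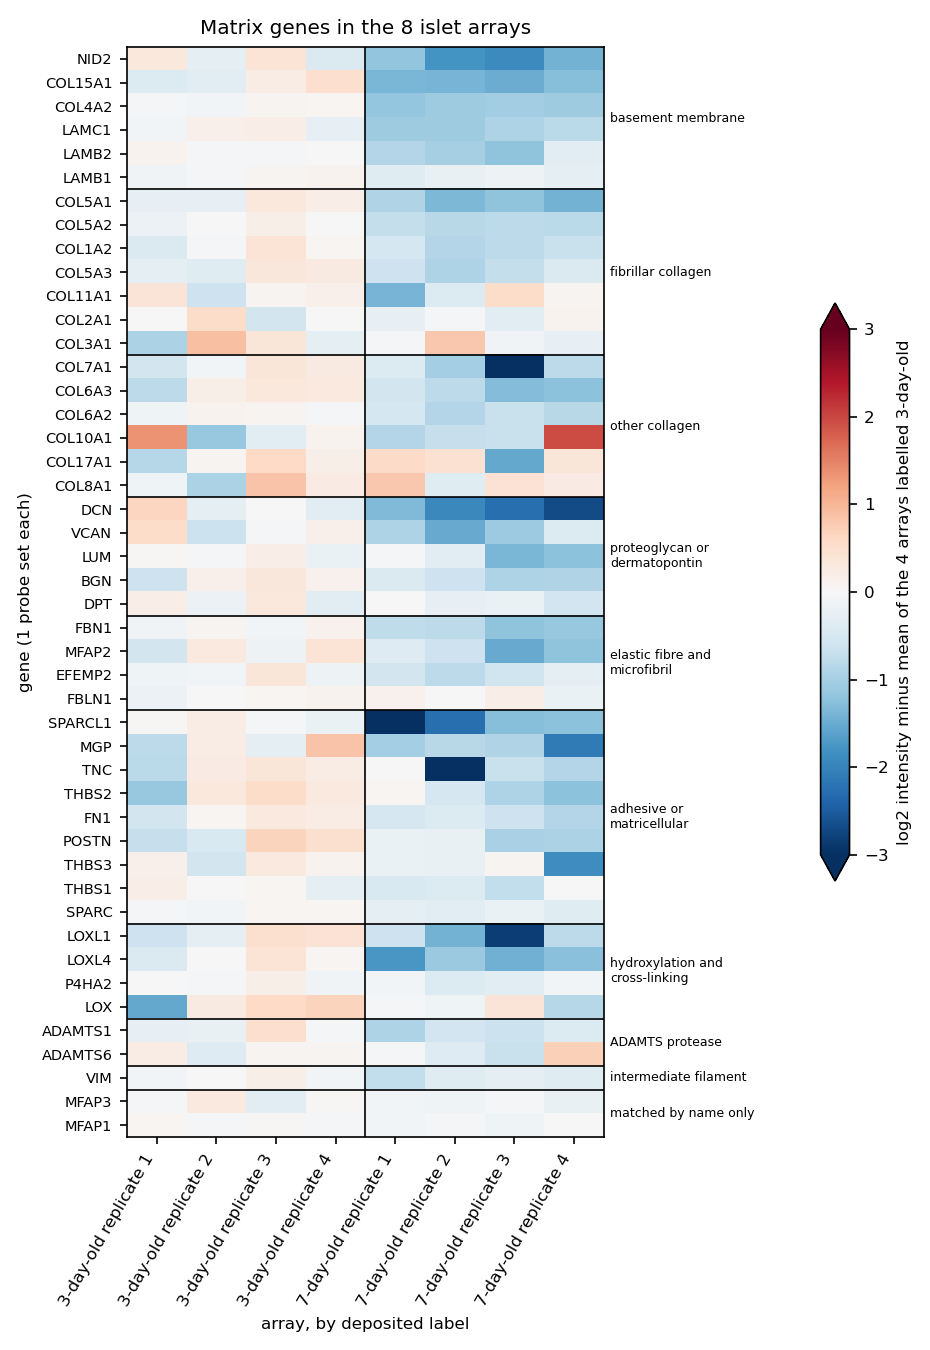
Log2 intensity of the 46 matrix genes tested (rows, grouped by role) in the 8 arrays (columns), each minus the gene's mean over the 4 arrays labelled 3-day-old. Blue is lower and red higher, and the colours end at -3 and 3, beyond which lie single arrays of SPARCL1, TNC and COL7A1. In the basement membrane rows all 4 right-hand columns are blue, and paler in LAMB1, and 3-day-old replicate 1 is bluer than the other arrays of its label in rows such as COL6A3, THBS2 and LOX.

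Basement membrane genes had the largest share of lower members, 5 of 6, with a median log2 difference of -1.03, and in all 6 the labels did not overlap. Among all 6540 genes tested, 7.16% were lower, and in 13.5% the labels did not overlap in this direction. These shares stand beside the counts of every role below, and roles with 1 gene called are not read as differing from them. COL4A2, a chain of the collagen IV network, had intensities of 4650, 4567, 5167 and 5102 in replicates 1 to 4 labelled 3-day-old and of 2180, 2328, 2345 and 2305 in those labelled 7-day-old. The 4 arrays of each label lay close together and far from those of the other, and the gene was 2.13-fold lower (log2 difference -1.09, SE 0.08, adjusted p = 0.00288). LAMC1, the gamma-1 chain shared by most laminins, had 2676, 3156, 3243 and 2394 against 1358, 1358, 1499 and 1615. It was 1.96-fold lower (-0.97, SE 0.13, adjusted p = 0.00694). Among its 3 further probe sets 2 were lower, and 1 was not called (adjusted p = 0.302).

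The other genes of this group spread more widely within a label. NID2, nidogen-2, which joins laminin to collagen IV, had 1153, 765, 1243 and 689 in arrays labelled 3-day-old and 408, 268, 247 and 346 in those labelled 7-day-old. Replicates 1 and 3 of the first label were the high ones, and the gene was 3.00-fold lower (log2 difference -1.58, SE 0.25, adjusted p = 0.0113). COL15A1, which codes for a collagen of basement membrane zones around vessels and muscle, had 646, 699, 1004 and 1228 against 335, 330, 306 and 354. Its arrays labelled 7-day-old were nearly alike while those labelled 3-day-old ranged widely, and the gene was 2.61-fold lower (-1.38, SE 0.21, adjusted p = 0.00991).

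The laminin beta chains LAMB1 and LAMB2 can each join the gamma-1 chain. LAMB2 had 435, 396, 386 and 404 in arrays labelled 3-day-old and 221, 203, 176 and 327 in those labelled 7-day-old, where replicate 4 was the high one. It was 1.79-fold lower (-0.84, SE 0.18, adjusted p = 0.0303), and lost the call when any array but 7-day-old replicate 4 was left out (adjusted p = 0.0564 to 0.0815). LAMB1 had 6789, 6982, 7753 and 7825 against 5717, 6282, 6563 and 5993. Its labels did not overlap, but the difference was small and did not pass the test (-0.26, SE 0.09, 95% interval -0.47 to -0.05, adjusted p = 0.113). Within an array, the ratio of LAMC1 to LAMB1 was lower in every array labelled 7-day-old, by -0.71 on the log2 scale (SE 0.14), with the smallest p that the exact permutation test allows (0.0286, and 0.0763 adjusted over the 8 pairs of genes compared here). The ratio of LAMC1 to LAMB2 differed by -0.13 (SE 0.21, exact permutation p = 0.629).

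**Figure D3:**
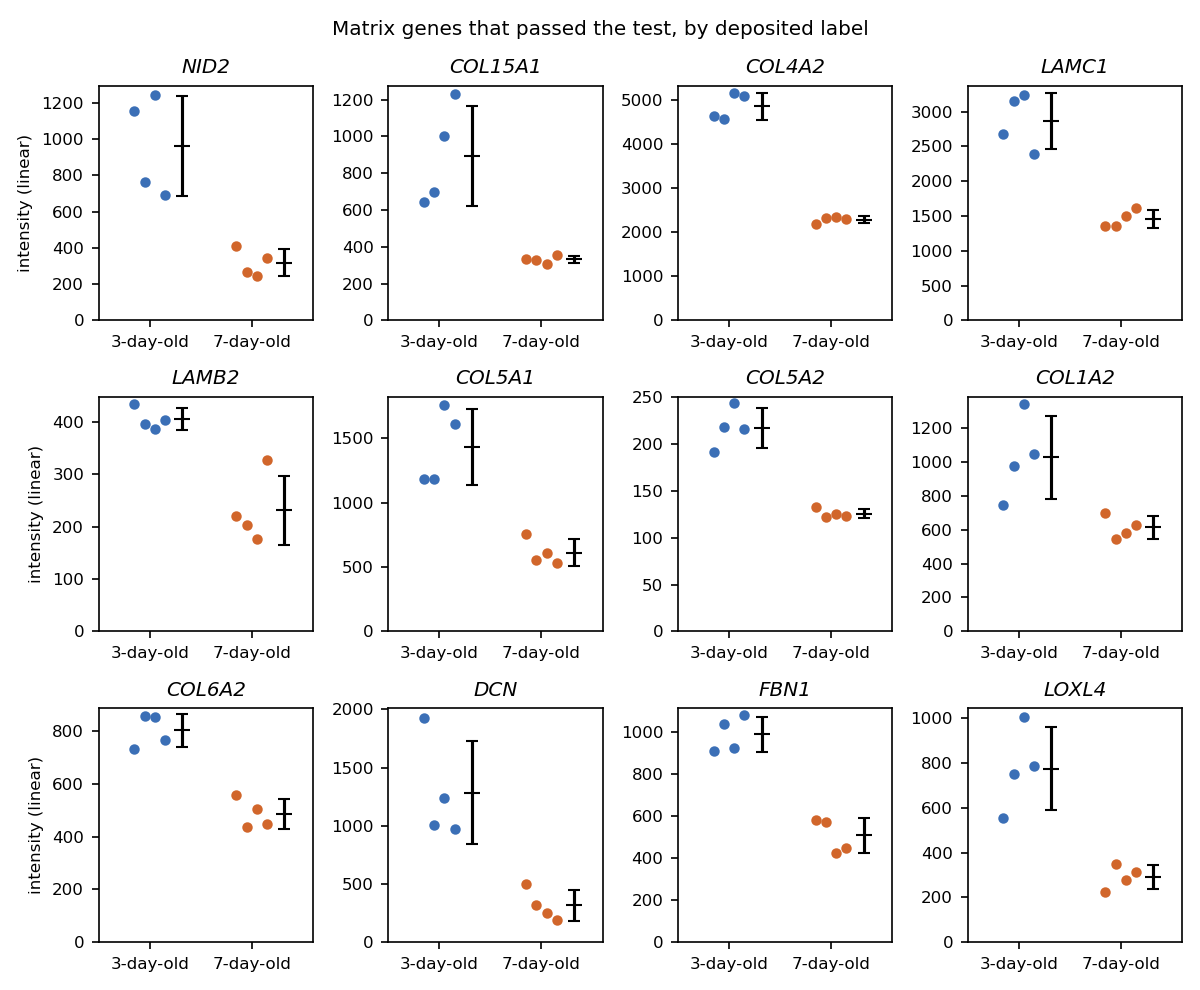
Linear intensity (y axis, from 0) of the 12 matrix genes that passed the test in the 4 arrays labelled 3-day-old (blue) and the 4 labelled 7-day-old (orange), with the mean ± SD of each label in black. The labels do not overlap in any of the 12 panels, and the gap is narrowest in COL1A2, between 747 and 701.

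Among the 7 fibrillar collagens, 3 were lower and the median log2 difference was -0.68. Collagen V, which sets the diameter of collagen I fibrils, was measured by all 3 of its chains. COL5A1 had 1183, 1184, 1758 and 1608 in arrays labelled 3-day-old and 758, 556, 606 and 531 in those labelled 7-day-old, and was 2.32-fold lower (-1.22, SE 0.18, adjusted p = 0.00950). COL5A2 had 191, 218, 244 and 216 against 132, 122, 125 and 123, and was 1.72-fold lower (-0.79, SE 0.10, adjusted p = 0.00610). In both genes the labels were well apart. COL5A3 had 465, 435, 713 and 680 against 364, 294, 340 and 411, which did not overlap either, but its difference did not pass the test (-0.68, SE 0.20, adjusted p = 0.0701). The ratio of COL5A1 to COL5A3 was lower in every array labelled 7-day-old (-0.54, SE 0.16, exact permutation p = 0.0286, adjusted over the 8 pairs 0.0763). Neither COL5A1 to COL5A2 (-0.43, SE 0.14, exact permutation p = 0.0571) nor COL5A2 to COL5A3 (-0.11, SE 0.18, exact permutation p = 0.657) separated the labels.

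Further probe sets of collagen V did not all make the same call. Of the other 4 tested for COL5A1, 1 was also lower (adjusted p = 0.0165) and 3 with some arrays under the 20th percentile were not called (adjusted p = 0.212 to 0.859). The other probe set of COL5A2 had a difference of -0.99 (adjusted p = 0.0800).

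COL1A2, the alpha-2 chain of collagen I, had 747, 973, 1342 and 1043 in arrays labelled 3-day-old and 701, 545, 583 and 630 in those labelled 7-day-old. The lowest array of the first label was only just above the highest of the second, and the difference passed narrowly (1.64-fold, -0.71, SE 0.18, adjusted p = 0.0473). It lost the call when any array but 3-day-old replicate 1 was left out (adjusted p up to 0.117). COL3A1, the chain of collagen III and the neighbour of COL5A2 in the pig genome, had 66.4, 239, 164 and 104 against 126, 226, 120 and 108. The labels overlapped throughout and the arrays of 1 label differed more than the labels did (0.11, SE 0.42, 95% interval -0.87 to 1.09, adjusted p = 0.896). COL2A1 and COL11A1, collagens of cartilage, had differences of -0.11 (SE 0.23) and -0.30 (SE 0.42) and overlapped. The other probe set of COL11A1 had -0.90 (SE 0.39, adjusted p = 0.179), and with the mean of its probe sets the gene was called lower (adjusted p = 0.0379).

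Of 6 other collagens, 1 was lower, and the median was -0.40. COL6A2, a chain of the beaded filaments of collagen VI, had 731, 855, 853 and 765 in arrays labelled 3-day-old and 556, 435, 504 and 447 in those labelled 7-day-old, and was 1.66-fold lower (-0.73, SE 0.11, adjusted p = 0.0102). COL6A3, a further chain of the same filament, had 1769, 3441, 3847 and 3774 against 2107, 1768, 1240 and 1304. Replicate 1 was the only array labelled 3-day-old in the range of the other label. The difference was -0.97 (SE 0.29, adjusted p = 0.0785), and -1.23 without that array (adjusted p = 0.0247). The ratio of COL6A2 to COL6A3 differed by 0.24 (SE 0.28, exact permutation p = 0.429).

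COL7A1, the collagen of anchoring fibrils, had 293, 408, 548 and 515 against 324, 212, 31.9 and 248, where 7-day-old replicate 3 stood far below the rest (-1.49, SE 0.71, adjusted p = 0.216). COL8A1, a short-chain collagen of vessel walls, had the highest difference of all members, 0.28 (SE 0.40, adjusted p = 0.703), with 32.6, 18.6, 64.7 and 42.3 against 63.1, 28.0, 48.1 and 42.3. Its probe sets disagreed in sign, since the other 2 tested had -0.77 and -1.09, the second at an adjusted p of 0.0557. COL17A1, a transmembrane collagen of hemidesmosomes, and COL10A1, a collagen of growth cartilage, lay near the 20th percentile. Their differences were -0.04 (SE 0.53) and -0.07 (SE 0.76), and the other probe set of COL17A1 had 0.21 (SE 0.44).

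**Figure D4:**
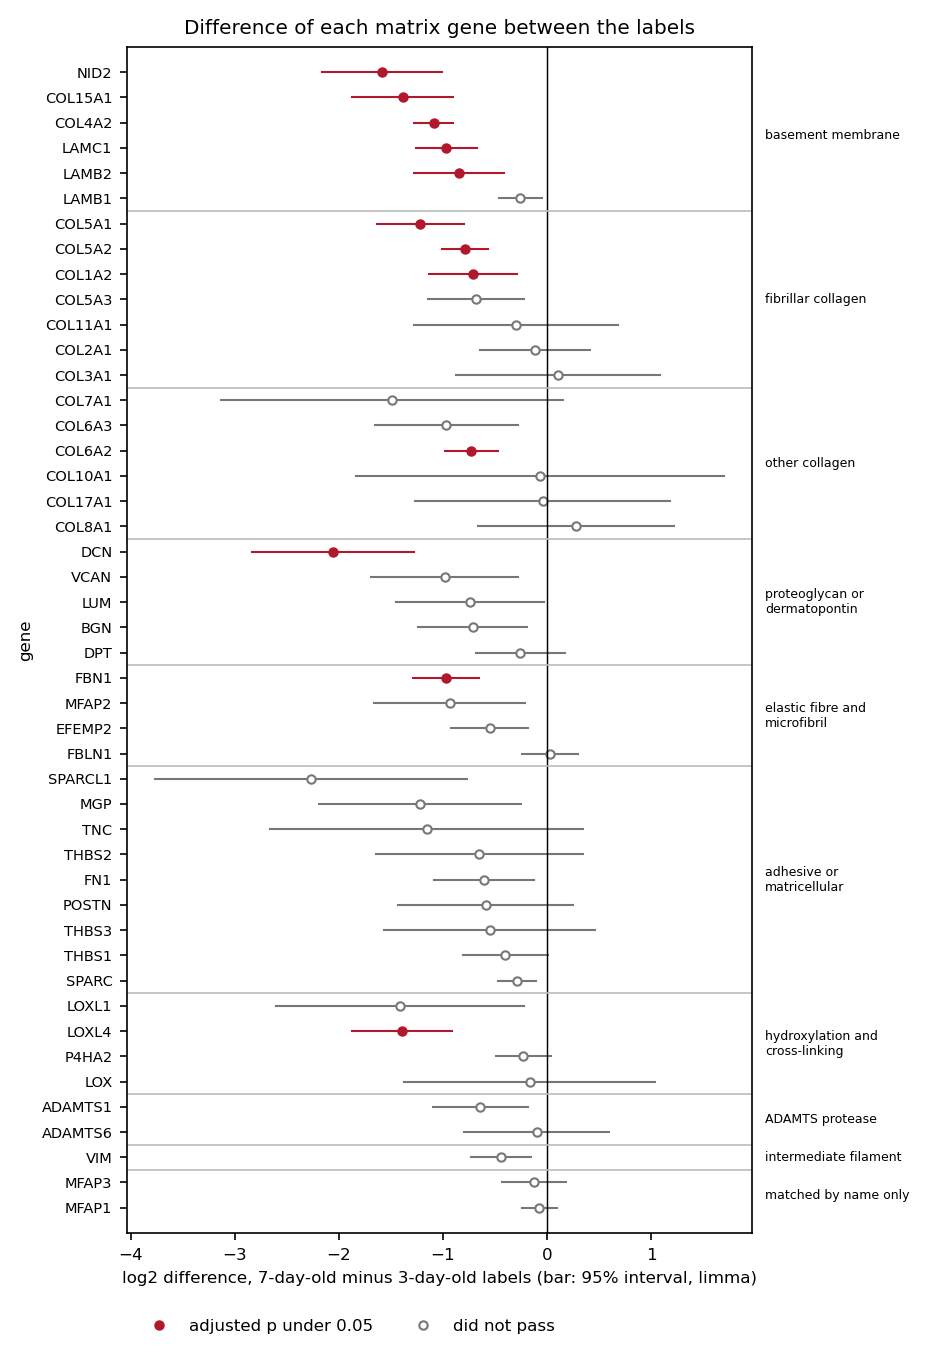
Log2 difference (x axis, arrays labelled 7-day-old minus 3-day-old) of each of the 46 matrix genes tested, grouped by role, with its 95% interval from limma. Filled red points had an adjusted p under 0.05, and they are the 12 lower genes, from -2.05 in DCN to -0.71 in COL1A2; COL3A1, COL8A1 and FBLN1 lie to the right of 0.

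Among the 4 proteoglycans and dermatopontin, 1 of 5 genes was lower and the median was -0.74. DCN, decorin, a small leucine-rich proteoglycan that binds collagen fibrils, had 1925, 1007, 1242 and 971 in arrays labelled 3-day-old and 498, 324, 256 and 191 in those labelled 7-day-old. Every array of the second label was far below the lowest of the first, and DCN was 4.15-fold lower (-2.05, SE 0.33, adjusted p = 0.0126), the most of the 12 called. LUM, lumican, is a proteoglycan of the same family and the neighbour of DCN in the pig genome. It had 2539, 2447, 2870 and 2163 against 2398, 1991, 971 and 1065. Here 7-day-old replicates 3 and 4 were low while replicates 1 and 2 were close to the other label, and the difference did not pass (-0.74, SE 0.31, adjusted p = 0.163). The ratio of DCN to LUM was lower in every array labelled 7-day-old (-1.31, SE 0.26, exact permutation p = 0.0286, adjusted over the 8 pairs 0.0763), and that of COL5A2 to COL3A1 differed by -0.89 (SE 0.43, exact permutation p = 0.114).

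BGN, biglycan, had 628, 1066, 1213 and 1060 in arrays labelled 3-day-old and 712, 629, 510 and 518 in those labelled 7-day-old. As in COL6A3, replicate 1 was the only array labelled 3-day-old within the range of the other label (-0.71, SE 0.22, adjusted p = 0.0850; without it -0.92 and 0.0230). VCAN, the large chondroitin sulphate proteoglycan versican, had 657, 290, 429 and 501 against 237, 159, 210 and 339 (-0.98, SE 0.30, adjusted p = 0.0826). DPT, dermatopontin, which binds decorin, overlapped between the labels (-0.26, SE 0.19).

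Elastic fibre and microfibril genes had 1 lower member of 4 tested and a median of -0.74. FBN1, fibrillin-1, the main protein of microfibrils, had 911, 1041, 927 and 1083 in arrays labelled 3-day-old and 584, 576, 428 and 451 in those labelled 7-day-old. The labels were far apart, the gene was 1.96-fold lower (-0.97, SE 0.13, adjusted p = 0.00811), and its other probe set was lower too (-0.79, adjusted p = 0.00853). MFAP2, a glycoprotein bound to microfibrils, had 180, 324, 239 and 351 against 202, 173, 92.2 and 114, which overlapped through 3-day-old replicate 1 (-0.93, SE 0.31, adjusted p = 0.0993). EFEMP2, a fibulin needed to build elastic fibres, did not overlap, with 444 to 631 against 285 to 411, but did not pass (-0.55, SE 0.16, adjusted p = 0.0675). FBLN1, fibulin-1, differed little, with 434 to 523 against 424 to 558 (0.03, SE 0.11, 95% interval -0.24 to 0.29).

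None of the 9 adhesive and matricellular genes passed the test, although all 9 differences were negative, with a median of -0.61. FN1, fibronectin, the adhesive protein to which integrins bind, had 8207, 12536, 14772 and 13996 in arrays labelled 3-day-old and 8555, 9062, 7820 and 6536 in those labelled 7-day-old. Again replicate 1 was the only array labelled 3-day-old that overlapped the other label (-0.61, SE 0.20, adjusted p = 0.103; without it -0.79 and 0.0276). SPARC, a collagen-binding matricellular protein, had 19914, 19300, 21196 and 21149 against 16739, 16464, 17784 and 15795. The labels did not overlap and the difference was small (-0.29, SE 0.08, adjusted p = 0.0594; 0.0235 by the methods' test).

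SPARCL1, a relative of SPARC, had the largest difference of all members, with 124, 142, 118 and 106 in arrays labelled 3-day-old and 6.24, 25.3, 49.9 and 52.0 in those labelled 7-day-old. In the second label 2 arrays were below the 20th percentile and the others not far above it, so the size rests on low intensities (-2.27, SE 0.64, 95% interval -3.76 to -0.77, adjusted p = 0.0645). MGP, an inhibitor of calcification, had 218, 439, 311 and 678 against 185, 213, 200 and 86.1 and did not overlap (-1.22, SE 0.42, adjusted p = 0.106). POSTN, TNC, THBS2 and THBS3 overlapped between the labels, with differences of -0.59 (SE 0.36), -1.16 (SE 0.65), -0.65 (SE 0.43) and -0.55 (SE 0.43). THBS1, thrombospondin-1, had 1728 to 2382 against 1241 to 2081 and was not called (-0.40, SE 0.17, adjusted p = 0.186). Another of its probe sets was lower (-0.67, adjusted p = 0.0318), and 1 of low intensity had the other sign (0.26, adjusted p = 0.878).

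**Figure D5:**
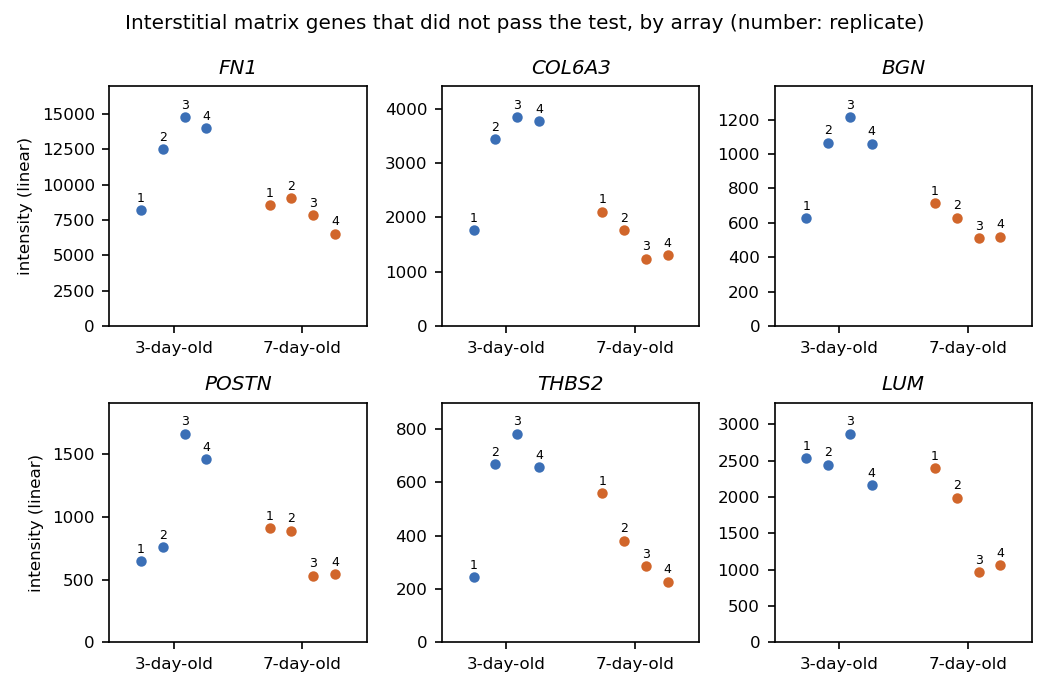
Linear intensity (y axis, from 0) of 6 interstitial matrix genes that did not pass the test, 1 point per array, numbered by replicate, for arrays labelled 3-day-old (blue) and 7-day-old (orange). In FN1, COL6A3, BGN, POSTN and THBS2 the lowest array labelled 3-day-old is replicate 1, and in LUM the 2 arrays apart from the rest are 7-day-old replicates 3 and 4. The 6 genes were picked to show these arrays. Replicate 1 was the lowest of its label in 23 of 46 members, and in VCAN, not shown, the highest (657).

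Enzymes that hydroxylate and cross-link collagen had 1 lower member of 4 and a median of -0.81. LOXL4, a lysyl oxidase of the family that cross-links collagen and elastin, had 556, 748, 1005 and 785 in arrays labelled 3-day-old and 226, 348, 277 and 315 in those labelled 7-day-old. It was 2.63-fold lower (-1.39, SE 0.21, adjusted p = 0.00970), while its other probe set tested, of low intensity, was not called (-0.95, adjusted p = 0.228). LOXL1 had 76.4, 95.6, 162 and 156 against 76.2, 43.5, 16.4 and 67.7. Its labels only just failed to overlap and it was not called (-1.41, SE 0.51, adjusted p = 0.122). LOX lay near the 20th percentile in both labels (-0.17, SE 0.52), and P4HA2, a collagen prolyl hydroxylase subunit, overlapped (-0.23, SE 0.11, adjusted p = 0.246).

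Of the ADAMTS proteases, ADAMTS1, which cleaves versican, had 451 to 766 against 282 to 403 and did not overlap (-0.64, SE 0.20, adjusted p = 0.0803), and ADAMTS6 did (-0.10, SE 0.30). VIM, vimentin, is an intermediate filament protein of mesenchymal cells and not a matrix protein. It had 19260, 20484, 23082 and 19238 against 12318, 15854, 16818 and 15812, with no overlap (-0.44, SE 0.12, adjusted p = 0.0637). MFAP1, a splicing factor that the name rule took, and MFAP3 had differences of -0.07 (SE 0.07) and -0.12 (SE 0.13). The other probe set of MFAP1 had 0.002 (SE 0.12).

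A further 9 members, without a call, had labels that did not overlap: LAMB1, COL5A3, EFEMP2, SPARC, SPARCL1, MGP, LOXL1, ADAMTS1 and VIM. In all genes too, labels that did not overlap in this direction (13.5%) were more frequent than lower calls (7.16%). With a variance prior that follows intensity, 24 members were lower, beside 1706 of the 21574 probe sets tested. With a stricter filter on low values 23 of 34 were lower, beside 1590 of 12213 probe sets. In either, 0 members were higher.

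The arrays of 1 label did not rank alike across the members. Replicate 1 was the lowest array labelled 3-day-old in 23 of 46 members and replicate 3 the highest in 26, whereas in the 7-day-old label replicate 1 was the highest in 20 and replicate 3 the lowest in 16. The median SD of the log2 intensity within a label was 0.36 for 3-day-old and 0.29 for 7-day-old. Without 3-day-old replicate 1, 14 members were lower and the median was -0.78, and without 3-day-old replicate 3, 10 were lower and the median was -0.54.

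Genes that process, remodel or bind the matrix but lie outside the name rule were taken as a list of 112, of which 45 had a probe set with 1 symbol, all tested. Of these, 14 were lower and 1 was higher, with a median of -0.36, beside 7.16% lower and 5.03% higher among all 6540 genes tested. Among the lower ones SERPINH1, the collagen chaperone of the endoplasmic reticulum, had 1016 ± 125 against 577 ± 61.3 (SD, n = 4 arrays each; -0.81, adjusted p = 0.00953), and CRTAP, part of the complex that 3-hydroxylates collagen prolines, -0.66 (adjusted p = 0.0132). ITGA5 and ITGB3, integrin chains that bind fibronectin and other matrix ligands, had -0.78 (adjusted p = 0.00610) and -1.57 (adjusted p = 0.00623). CYR61, a matricellular protein, had -1.10 (adjusted p = 0.00440) and DSE, which converts chondroitin sulphate to the dermatan sulphate carried by decorin, -1.07 (adjusted p = 0.00709). The largest differences of the list were those of the matrix proteases MMP3, with 2266 ± 750 against 311 ± 229 (-3.19, adjusted p = 0.0243), and MMP1, with 8050 ± 1362 against 1260 ± 656 (-2.83, adjusted p = 0.00787). MMP3 was named after its value was seen. MMP2, a further protease, and TIMP1, an inhibitor of these enzymes, had -1.42 (adjusted p = 0.0180) and -0.80 (adjusted p = 0.0149). For MMP1, MMP2, MMP3, ITGB3 and DSE the direction is again opposite to that of the supplementary lists of the study. The higher gene was SEC24D, a coat protein of the vesicles that carry procollagen out of the endoplasmic reticulum, with 327 ± 71.2 against 608 ± 13.6 (0.92, adjusted p = 0.0146).

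Markers of other cell types that the preparations can hold were counted in the same fit. Among all 6540 genes tested, 7.16% were lower and 5.03% higher. Lists this short with 1 or 2 members called are not read as differing from these shares. Of 11 fibroblast and stellate markers tested, with no matrix gene among them, 6 were lower (median -0.90), and their summed intensity was 12229 to 18483 in arrays labelled 3-day-old and 7509 to 9105 in those labelled 7-day-old. For PDGFRB, a receptor of fibroblasts and pericytes, the difference was -1.17 (adjusted p = 0.0370). PTN of the same list had a positive difference of 0.20 without a call. Of 13 endothelial markers 6 were lower (median -0.91, sums 3321 to 3821 against 2113 to 2378), among them PECAM1 (-1.70, adjusted p = 0.00331). VWF, under the 20th percentile in some arrays, and CD93 had positive differences of 0.27 and 0.01 without a call. For CD93 this holds for the probe set used here. The supplementary lists of the study hold another, given there with a second symbol, as higher at the older age. Of 8 pericyte and smooth muscle markers 3 were lower (median -0.55, sums 3236 to 4310 against 2035 to 2425), among them RGS5 (-1.42, adjusted p = 0.00670). PECAM1 and RGS5 too are opposite in direction to the supplementary lists of the study. Of 8 duct markers 2 were lower (median -0.46, sums 39404 to 42115 against 33738 to 36193), and of 12 leukocyte markers 2 (median -0.67, sums 1706 to 2521 against 1240 to 1450). In these 5 lists the summed intensities of the labels did not overlap. A sum weighs most the genes of high intensity. Such genes were CFD (mean 7459 against 3878) among fibroblast markers, CD93 (1237 against 1241) among endothelial markers and LCP1 (989 against 657) among leukocyte markers. The leukocyte markers PTPRC, CD14, TYROBP, CD3E, CD4, CD8A and CD79B were under the 20th percentile in some arrays. Leukocyte markers did not all have 1 sign: TYROBP was lower (-2.25, adjusted p = 0.0328), and ITGB2 had 0.54 (adjusted p = 0.0512) with every array labelled 7-day-old above the others. The sums overlapped for the 7 acinar markers, of which 1 was lower (median -0.14). Among them CELA1, AMY2 and CLPS had positive differences of 0.79, 0.52 and 0.40 without a call. Sums also overlapped for the 5 Schwann and neural markers, of which 2 were lower (median -0.19). There STMN2 (-1.52, adjusted p = 0.00975) and S100B (-0.67, adjusted p = 0.0486) were the lower ones. NCAM1 had -0.19 without a call, and UCHL1 and SOX10 had positive differences of 0.34 and 0.13 without a call. Of 16 endocrine markers 7 were higher and 0 lower (median 0.43), while INS (-0.07, adjusted p = 0.795) and GCG (-0.19, adjusted p = 0.491) were not called. INS had 19881 to 29628 and GCG 20250 to 34490, where the highest intensity of any probe set was 41079. Whether differences are compressed at such intensities was not tested. Among the 7 endocrine markers called higher, NEUROD1 (1.39), PCSK2 (1.11) and TTR (1.05) are again opposite in direction to the study. Its supplementary lists hold them, PCSK2 under the name PC2, as lower at the older age. The part of these cell types in the differences of the matrix genes was not tested.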

How the data were processed

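Islets of 4 pigs labelled 3-day-old and 4 labelled 7-day-old were measured on 1 array each. Per probe set, the table holds a deposited linear intensity, scaled by the authors to a common mean after trimming (2% at each end gave 500.1 in every array). The summarising software is not given in the sources. The methods describe extra linear amplification of samples with little cRNA without naming them, and neither labels nor table give a scan date, so neither could be examined. The authors' own analysis centred each probe set on its median over samples and used an unpaired test in GeneSpring. Ages and replicate numbers came from the deposited labels. Nothing beyond 1 pig per array says how far replicates are independent.

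Of 24123 probe sets, 124 controls were left out. Intensities below 1 were set to 1 (1528 values) and put on the log2 scale, and the 21574 probe sets at or above their array's 20th percentile in at least 1 array were tested with limma 3.58.1 in R 4.3.3 (lmFit, eBayes, two-sided, no covariates, Benjamini-Hochberg adjustment, threshold 0.05). Fold changes are 2 to the power of the difference between mean log2 intensities. Symbols came from the platform annotation, which is dated: 10069 probe sets had 1 symbol, 198 several and 13732 none, and those with several named no gene. All 48 symbols matched the RefSeq pig annotation (Sscrofa11.1), which was used only for neighbouring genes. Ratios of pairs of members, chains of 1 trimer or adjacent genes, were compared over arrays by exact two-sided permutation tests. Other steps used scipy 1.17.1, numpy 2.4.6, pandas 2.3.3 and, for plots, matplotlib 3.10.9, all under Python 3.11.15.

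The members, their roles, the pairs, the list of assembly and turnover genes and the cell type markers were chosen with earlier results of these data known. Named were all members called, those brightest or most different in each role, those whose probe sets disagree, those in the supplementary lists of the study, and the assembly and turnover genes with the lowest p. Scripts were tested on simulated data. Alternatives were the methods' test, an intensity trend with robust variances, array weights, a block for the replicate number, leaving out each array, no filter, a filter at the 50th percentile in 4 or more arrays (stricter), quantile normalization, median centring, an offset of 16 before log2 and the mean of a gene's probe sets. The number of arrays limits the precision.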

Additional observations from a re-analysis of the deposited data

Results flagged for a closer look

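In 8 of 92 groups of 4 arrays (46 matrix genes, each label) 1 array stood apart from the other 3 by more than Dixon's 95% critical value, and about 1 group in 20 does so by chance. Replicate 1 labelled 3-day-old was low in THBS2 (intensity 244, others 657 to 782), TNC (54.3, others 110 to 121) and COL6A3 (1769, others 3441 to 3847). Replicate 3 of the same label was high in EFEMP2 (631, others 444 to 465). In the 7-day-old label, replicate 4 was low in MGP (86.1, others 185 to 213) and THBS3 (15.7, others 49.0 to 61.3) and high in COL10A1 (39.3, others 5.54 to 6.43), and replicate 3 was low in COL17A1 (11.7, others 43.1 to 50.0). None of these 8 genes was among the 12 called. The values of THBS3, COL10A1 and COL17A1 lie around the 20th percentile of the arrays.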

How the results depend on the processing

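The number of lower matrix genes, 12, was 11 without a filter, 12 by the methods' test, median centring and quantile normalization, 13 with the offset, 16 with array weights and with the mean of probe sets, 23 with the stricter filter, 24 with the intensity trend, and 10 to 14 with 1 array left out. It was 0 with the replicate number as a block, where the other counts of calls were 0 as well: all probe sets, lower and higher, assembly and turnover genes, lower (14 before) and higher (1 before), cell type markers other than endocrine (22 before) and endocrine markers (7 before). The labels do not say that equal numbers mark related pigs. Over all probe sets tested, same-numbered arrays did not deviate together (correlations of residuals 0.00487, -0.00338, 0.00415 and -0.0135). A factor shared by same-numbered arrays in part of the genes was not tested. The block also leaves fewer residual degrees of freedom. With it, 24 matrix genes were lower at an unadjusted p under 0.05. The number of higher matrix genes was 0 in every alternative, and the median ran from -0.78 to -0.54. Over all probe sets, 1181 were lower and 1124 higher. With the stricter filter these were 1590 and 1705, and with the trend 1706 and 1785. With 1 array left out they were 547 to 918 and 415 to 936, the fewest without 3-day-old replicate 3 and without 7-day-old replicate 2. Leaving out 1 array gave 8 to 14 lower and 1 higher assembly and turnover genes, 11 to 18 lower cell type markers and 4 to 7 higher endocrine markers, the fewest lower ones without 3-day-old replicate 3 and the fewest endocrine ones without replicate 1 or 3 labelled 3-day-old or replicate 1 or 2 labelled 7-day-old. The cause of these changes was not tested.

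Outside the block, 10 of the 12 called genes kept their call in every alternative; COL1A2 lost it without the filter (adjusted p = 0.0591), by the methods' test (0.0709) and without any array but 3-day-old replicate 1, and LAMB2 without any array but 7-day-old replicate 4. Signs turned only in genes that were not called: COL10A1 had 0.0545 with quantile normalization and 0.0203 with the offset, COL17A1 0.0484 with quantile normalization, 0.125 with array weights, 0.00946 with the offset and 0.0864 with the mean of probe sets, and COL8A1 -0.53 with the mean of probe sets. With 1 array left out, the difference ran from -0.37 to 0.0947 in ADAMTS6, -0.74 to 0.38 in COL10A1, -0.58 to 0.0703 in COL11A1, -0.33 to 0.46 in COL17A1, -0.30 to 0.0684 in COL2A1, -0.21 to 0.41 in COL3A1, -0.0369 to 0.56 in COL8A1, -0.0327 to 0.10 in FBLN1 and -0.68 to 0.0597 in LOX. Low intensities limit COL8A1, COL10A1, COL11A1, COL17A1, LOX, LOXL1, SPARCL1, THBS3 and TNC, which lay under the 20th percentile in at least 1 array.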
